A study of Mus musculus with 2 samples.

Results

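The albumin gene family and transthyretin were examined in fetal liver of Prox1 f/f;Foxa3Cre conditional knockout mice and of wild-type mice. The genes were albumin (Alb), alpha-fetoprotein (Afp), afamin (Afm), the vitamin D-binding protein (Gc) and transthyretin (Ttr). They were chosen by name, with earlier results of these data known, and their probe sets were those that the platform annotation assigns to exactly 1 of them. This gave 12 probe sets for 4 genes, out of 45037 probe sets and 18193 genes on the array. Alb had 1 probe set, Afp 5, Afm 2 and Ttr 4. No probe set was assigned to Gc, which was therefore not analysed here beyond its promoter sequence.

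The study hybridized total liver RNA to single-colour Affymetrix arrays, 1 for the knockout and 1 for the wild type, both from embryos at stage E14.5. In the knockout a Cre recombinase under the control of Foxa3, a gene of gut and liver endoderm, acts on a floxed Prox1 gene, a homeobox gene of liver progenitor cells. Both samples carry the strain label NMRI/C57Bl6. The sources used here do not say whether the wild type carried any floxed or Cre allele, how many embryos went into each sample or which part of Prox1 is removed. With 1 array per genotype there is no replicate error and no test between genotypes, and each value given is 1 reading.

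Albumin, alpha-fetoprotein, afamin and vitamin D-binding protein descend from a common ancestral gene and are secreted into blood by cells of the hepatocyte lineage. Albumin carries fatty acids, hormones, metals and drugs and keeps up the osmotic pressure of plasma. Alpha-fetoprotein is its fetal counterpart, which is shut down in liver after birth, afamin binds vitamin E and Wnt proteins, and vitamin D-binding protein carries vitamin D metabolites and scavenges actin. Transthyretin is not related in sequence. It carries thyroxine and, bound to retinol-binding protein (Rbp4), retinol, and it is used with albumin and alpha-fetoprotein as an early mark of hepatic endoderm.

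Alb, Afp and Afm follow each other in this order on mouse chromosome 5, with no other protein-coding gene between them in the RefSeq table of GRCm38.p6. Gc lies on the same chromosome with 4 protein-coding genes between it and Alb. The 250 bases before the annotated start of each of these genes, from RefSeq (build GRCm38.p6), are shown to compare the core promoter elements of the family. Capitals mark the CCAAT box, written CCAAT, or ATTGG where it lies on the other strand.
Alb (GRCm38.p6 chr5:90460620-90460869, forward strand): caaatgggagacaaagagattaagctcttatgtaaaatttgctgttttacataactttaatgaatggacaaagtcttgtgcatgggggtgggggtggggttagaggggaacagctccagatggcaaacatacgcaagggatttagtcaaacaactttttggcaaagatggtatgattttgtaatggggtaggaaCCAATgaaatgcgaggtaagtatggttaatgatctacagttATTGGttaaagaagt
Afp (GRCm38.p6 chr5:90490464-90490713, forward strand): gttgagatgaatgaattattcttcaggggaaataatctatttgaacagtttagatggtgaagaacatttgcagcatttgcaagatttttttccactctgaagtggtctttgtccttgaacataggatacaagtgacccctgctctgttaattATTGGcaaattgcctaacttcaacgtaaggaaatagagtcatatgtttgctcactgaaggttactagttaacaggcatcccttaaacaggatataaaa
Afm (GRCm38.p6 chr5:90518699-90518948, forward strand): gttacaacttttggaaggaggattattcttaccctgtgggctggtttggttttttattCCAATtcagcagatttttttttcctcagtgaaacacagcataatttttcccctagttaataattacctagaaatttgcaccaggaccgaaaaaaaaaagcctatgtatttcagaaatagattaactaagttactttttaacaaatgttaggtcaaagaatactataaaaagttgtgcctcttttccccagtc
Gc (GRCm38.p6 chr5:89457899-89458148, reverse strand): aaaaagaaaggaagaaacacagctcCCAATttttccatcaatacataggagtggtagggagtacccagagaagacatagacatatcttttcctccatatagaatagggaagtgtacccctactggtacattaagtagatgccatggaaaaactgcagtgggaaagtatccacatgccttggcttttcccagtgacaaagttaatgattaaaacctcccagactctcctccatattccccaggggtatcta

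The CCAAT box, an element of many promoters that was searched on both strands, was found in all 4 of these windows and in 33.8% of 32851 windows of the same length in the RefSeq promoter table. Counted from the annotated start, it began at -56 and, on the other strand, at -15 in Alb, at -98 on the other strand in Afp, at -192 in Afm and at -225 in Gc. A TATA box, searched as TATAAA on both strands, was found in Afp and Afm and in 12.4% of all windows. It began at -7 in Afp and at -30 in Afm, and bases past the annotated start were not searched. The annotated starts were not checked against measured transcription starts. The distances, and the lack of a match in a window, therefore depend on the annotation and are not read as differences between the promoters. The Foxa core TGTTTNC, searched on both strands, was found in Alb and Afp and in 17.8% of all windows. No match overlapped another. These matches are descriptions of letters, the motifs were picked with the sequences in view, and no binding was measured. Ttr lies on another chromosome and its promoter was not analysed here.

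**Figure D1:**
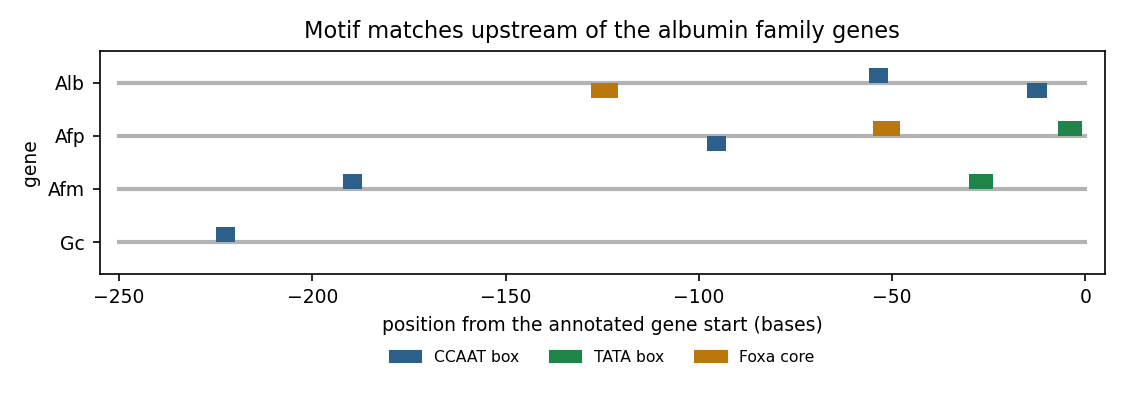
Motif matches in the 250 bases before the annotated start of Alb, Afp, Afm and Gc. The x axis is the position from the annotated start in bases, boxes above a line are matches on the gene's strand, and boxes below it are matches on the other strand. All 4 genes hold a CCAAT box, at different distances from the annotated start, which was not checked against measured transcription starts.

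The quantity measured is the MAS5 signal, a linear intensity that summarizes the probes of 1 probe set. Both arrays had a 2% trimmed mean of 500.0, so the signals were compared as deposited. Values below a common floor of 112.6, the higher of the arrays' median signals, were raised to it, and a probe set above it was counted as measured. Log2 differences are given as knockout minus wild type. Where a gene had several probe sets, the one brightest on average (in log2 units) stood for it, and a gene counted as different when the arrays were 2-fold apart or more. Signals of different probe sets are not comparable as amounts of mRNA, so ranks below place a probe set on the scale and say nothing about which mRNA is more abundant. The Prox1 probe sets read 221.8, 111.8 and 66.7 in the knockout, against 340.3, 205.9 and 175.4 in the wild type. The brightest was 1.53-fold lower in the knockout, and the others, under the floor there, give only bounds, which are also less than 2-fold. The female-specific RNA Xist read 365.7 in the knockout, against 11467 in the wild type, on its brightest probe set. The Y-linked gene Eif2s3y read 1972 in the knockout and 0.87 in the wild type on its brighter probe set. These readings are those of a mainly male knockout sample and a female wild-type sample. With 1 array each, sex and genotype cannot be told apart in any difference given here. Of 14 measured housekeeping genes 0 were 2-fold apart, and their median log2 difference was 0.06.

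The 3 abundant fetal plasma proteins of the set, albumin, alpha-fetoprotein and transthyretin, gave nearly equal signals in the knockout and the wild type, and afamin was lower in the knockout. None of the 4 genes differed 2-fold (0 higher, 0 lower), while 5.4% of 11397 measured genes did, 3.27% higher and 2.13% lower. At 1.5-fold, Afm was counted as lower, where 5.21% of all measured genes were lower by that size. The median log2 difference of the 4 genes was -0.05, beside 0.03 over all measured genes. In whole liver RNA, fewer cells of a type and less RNA per cell cannot be told apart.

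Albumin read 33186 in the knockout and 32396 in the wild type on probe set 1425260_at. The log2 difference was 0.03, a 1.02-fold difference, and it was just below 0 under quantile normalization (-0.0034) and when the housekeeping genes were centred on 0 (-0.02). The probe set ranked 12th in the knockout and 11th in the wild type of 45037, so albumin kept its place at the top of the scale. No other probe set of the annotation was assigned to Alb, so there was no dimmer reading to set beside it.

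Alpha-fetoprotein was read by 3 bright probe sets, which agreed closely, and by 2 dim ones, which did not follow them. The brightest, 1416646_at, read 35212 in the knockout and 36369 in the wild type, and ranked 4th in the knockout and 2nd in the wild type. Probe set 1416645_a_at read 29488 in the knockout and 29737 in the wild type. Probe set 1436879_x_at read 29270 in the knockout and 29225 in the wild type. Their log2 differences were -0.05, -0.01 and 0.0022, and the last of these was below 0 under all 3 rescalings. Each bright Afp probe set thus differed by no more than 1.03-fold between the genotypes.

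The remaining Afp probe sets, 1436881_x_at and 1436880_at, were both higher in the knockout. Probe set 1436881_x_at read 289.3 in the knockout and 108.8, under the floor, in the wild type, so the knockout was at least 2.57-fold higher. Probe set 1436880_at read 50.6 in the knockout and 6.49 in the wild type, under the floor on both arrays, and gives no fold. Both were designed on the same sequence record in the annotation, and the sources used here do not say what part of Afp it covers. Probe set 1436881_x_at lies in the band between the floor and a mean signal of 250, where 5.38% of probe sets differed 2-fold. In that band 229 of 6285 probe sets were at least 2-fold higher in the knockout.

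Transthyretin was read by 4 probe sets, all near the top of the scale. Probe set 1454608_x_at read 33415 in the knockout and 34600 in the wild type, a log2 difference of -0.05, and ranked 10th in the knockout and 5th in the wild type. Probe set 1455913_x_at read 26562 in the knockout and 29054 in the wild type, a log2 difference of -0.13. Of the 4 probe sets, 3 were lower in the knockout and 1 was higher. The higher one, 1459737_s_at, read 27537 in the knockout and 27009 in the wild type, a log2 difference of 0.03 that was below 0 under quantile normalization and with housekeeping genes centred. The dimmest, 1451580_a_at, read 16264 in the knockout and 18620 in the wild type and had the largest difference of the Ttr probe sets, -0.20 or 1.14-fold. It was also the only Ttr probe set with a mean signal under 20000. None of the 4 carries the plain _at suffix, and whether their probes also match other transcripts was not checked.

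Afamin, whose probe sets lay below the top of the scale, was lower in the knockout on both of its probe sets. Probe set 1427440_a_at read 2383 in the knockout and 4043 in the wild type, and 1427561_a_at read 1346 in the knockout and 2446 in the wild type. The log2 differences were -0.76 and -0.86, or 1.70-fold and 1.82-fold lower. The first ranked 3165 in the knockout, against 1880 in the wild type, and the second 5336 in the knockout, against 3136 in the wild type. The direction was the same under the 3 rescalings, from -0.82 to -0.73 for the brighter probe set. Both probe sets carry the _a_at suffix, which marks probes shared by transcripts of 1 gene, so they are 2 readings of 1 RNA sample and not replicates.

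**Figure D2:**
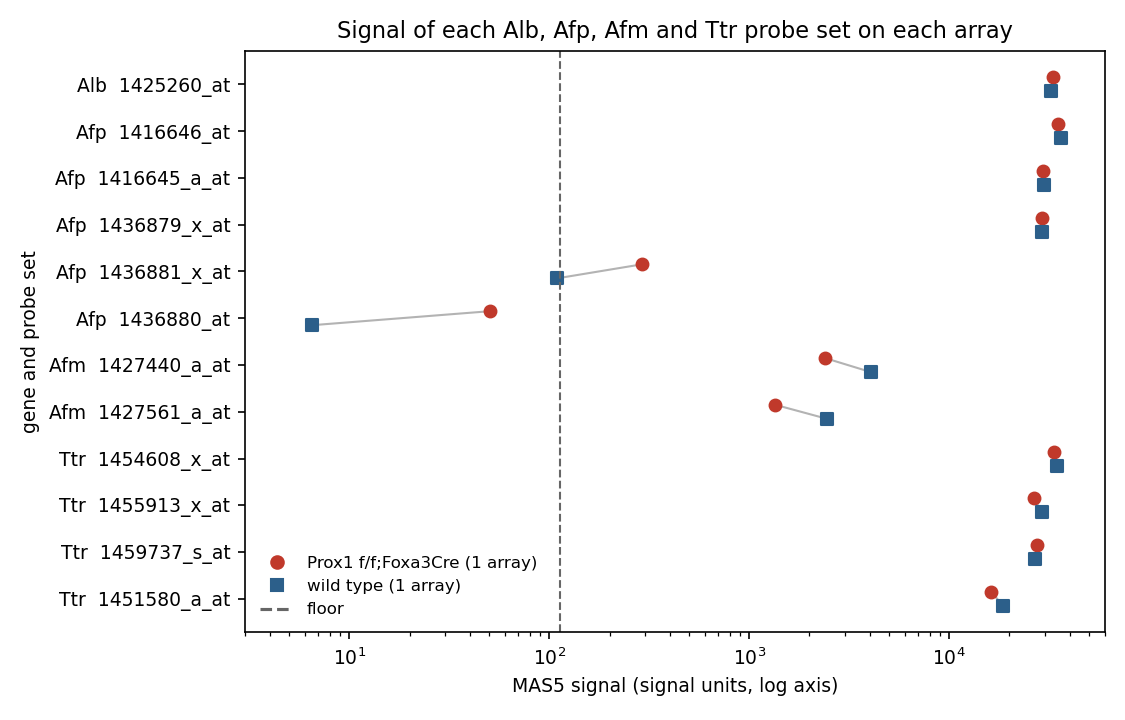
MAS5 signal on a log axis for each of the 12 probe sets of Alb, Afp, Afm and Ttr, with circles for the knockout array, squares for the wild-type array and a dashed line at the floor of 112.6. The bright Alb, Afp and Ttr probe sets nearly coincide, both Afm probe sets are lower in the knockout, and the 2 dim Afp probe sets are higher in the knockout.

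The near-equality of the bright members has to be read with their place on the scale. Of the 12 probe sets, 7 had a mean signal above 20000. The highest signal of all was 37270 on the knockout array and 37860 on the wild-type array, and the first and the 100th probe set of an array were only 0.48 (knockout) and 0.54 (wild type) apart on the log2 scale. Among the 83 genes with a mean signal above 20000, 0% differed 2-fold, and the middle 95% of their log2 differences ran from -0.32 to 0.30. A real difference in these mRNAs can be compressed at this end of the scale, and how far that applies to Alb, Afp and Ttr was not tested. Within that band, 65 of 83 genes were as far from 0 as Alb or farther, 61 as far as Afp and 56 as far as Ttr.

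Afm lay lower, between 1000 and 5000, where the robust SD of the log2 difference over 3418 genes was 0.23. In this band 2.95% of genes differed 2-fold and 3.77% were at least 1.5-fold lower. Of the 3418 genes, 84 (2.46%) had a log2 difference as low as that of Afm or lower. The middle 95% of the band ran from -0.75 to 0.80, so Afm sat just below its lower end.

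The genes with the most similar pair of signals were found by the distance between log2 signals over the 2 arrays. The 3 nearest to Alb were the ferritin heavy chain Fth1, the translation elongation factor Eef1a1 and the ribosomal protein gene Rps3a1. Those nearest to Afp were Rps29, Rps3a1 and Rpl38, and those nearest to Ttr were Rps3a1, the surface glycoprotein Cd24a and Rpl38. For Afm they were the mitochondrial carrier Slc25a51, the inter-alpha-trypsin inhibitor chain Itih4 and the noncoding RNA Zfas1, at distances from 0.07 to 0.13. With only 2 arrays, such likeness is one of level and of 1 difference.

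Other plasma proteins of the liver were lower in the knockout more widely than the albumin family and Ttr. The list was chosen with earlier results of these data known. Of 44 listed, 38 had a probe set and 37 were measured. Of the measured genes 19 were at least 2-fold lower (2.13% of all genes were), 0 were 2-fold higher, and 36 were below 0, with a median log2 difference of -1.04. Ahsg, which encodes fetuin-A, read 788.4 in the knockout and 10437 in the wild type, 13.2-fold lower. Apoh, beta-2-glycoprotein I, read 2383 in the knockout and 14470 in the wild type, 6.07-fold lower. Pzp, an alpha-macroglobulin, was 9.98-fold lower, and ceruloplasmin (Cp) and paraoxonase Pon1, both under the floor in the knockout, were at least 8.75-fold and at least 8.44-fold lower. The other measured probe sets of Cp gave smaller log2 bounds or differences, from -2.19 to -1.0024. The gene above 0, haptoglobin (Hp, named after its value was seen), read 681.5 in the knockout and 443.3 in the wild type.

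The sizes in this list also differed with the place of a gene on the scale. The 18 plasma protein genes with a mean signal between 5000 and 20000 had a median of -1.08, with 10 at least 2-fold lower, and the 8 between 1000 and 5000 had a median of -1.04, with 4 at least 2-fold lower. Afm, at -0.76, lay inside the range of those 8 genes, which ran from -3.32 to -0.63. Only 3 of the list were above 20000, and all were lower by less than 2-fold. They were named after their values were seen. Apoa1, the main apolipoprotein of high-density lipoprotein, read 25348 in the knockout and 32222 in the wild type, a log2 difference of -0.35. Apoa2 read 22041 in the knockout and 27220 in the wild type, a difference of -0.30, and the corticosteroid carrier Serpina6 read 19854 in the knockout and 27214 in the wild type, a difference of -0.45. The other Apoa1 probe sets above 20000 ran from -0.55 to -0.20. The main probe sets of Alb, Afp and Ttr, at 0.03, -0.05 and -0.05, lay closer to 0. However, they also lay higher on the scale than the main probe sets of Apoa1, Apoa2 and Serpina6. For Alb and Apoa1 this was narrow on the wild-type array. Of the less bright Ttr probe sets, those at -0.13 and -0.20 came nearer to the values of Apoa1, Apoa2 and Serpina6, while 1459737_s_at, at 0.03, did not. The less bright Afp probe sets above 20000, at -0.01 and 0.0022, also stayed near 0. The comparison has no replicates and no test.

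**Figure D3:**
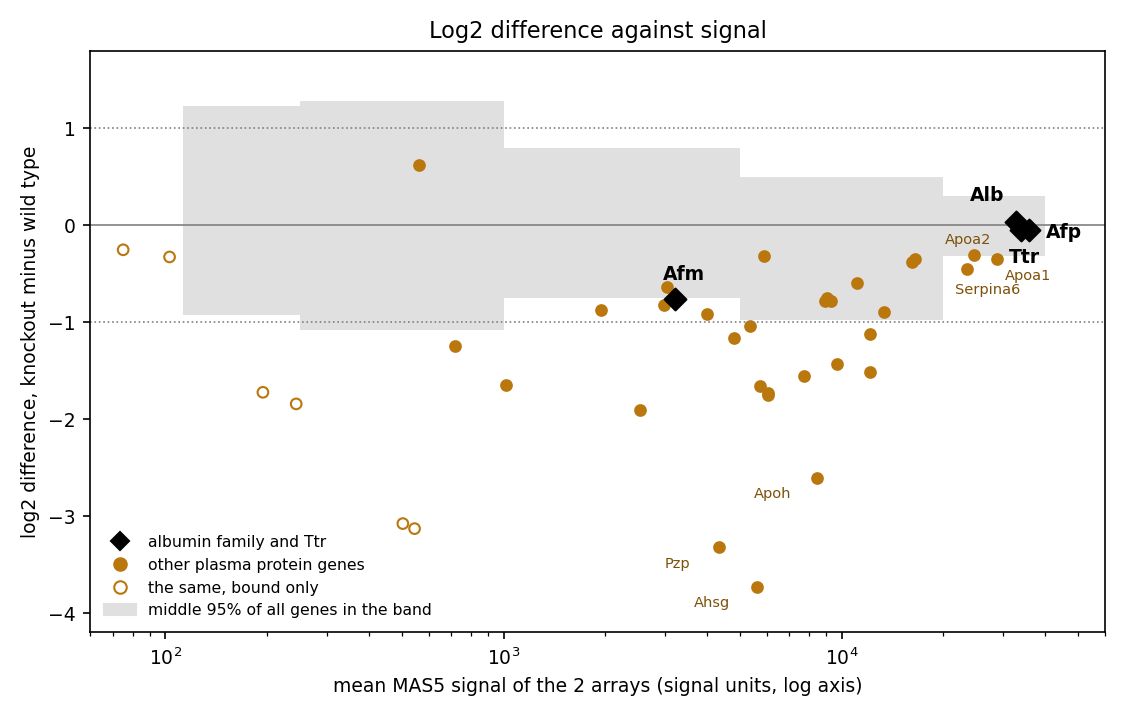
Log2 difference, knockout minus wild type, against the mean MAS5 signal of the 2 arrays on a log axis. Diamonds are Alb, Afp, Afm and Ttr, filled circles other plasma protein genes measured on both arrays, open circles genes with only a bound, the grey area the middle 95% of all genes in each signal band and the dotted lines 2-fold. Alb, Afp and Ttr sit near 0 at the right end, while 19 of 37 other plasma protein genes lie at or below -1.

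Transcription factors and cofactors known to act on the albumin family or in its cells lay on both sides of 0. Of 34 listed regulators, 31 had a probe set and 29 were measured. Of these, 2 were 2-fold higher, 1 was 2-fold lower and 26 lay between, beside 3.27% higher and 2.13% lower among all genes. The median was 0.29, and 21 of 29 were above 0, beside 6134 of 11397 among all genes. Cebpa, an activator of the albumin promoter, read 578.2 in the knockout and 1174 in the wild type, 2.03-fold lower. Hnf4a, a nuclear receptor of hepatocyte genes, read 1562 in the knockout and 2280 in the wild type, 1.46-fold lower, and its other probe sets ran from -0.85 to -0.04.

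The bile acid receptor Nr1h4 was 3.66-fold higher in the knockout and the nuclear factor I gene Nfia 2.30-fold higher. Foxa2, which opens chromatin at liver enhancers, read 488.3 in the knockout and 275.2 in the wild type, 1.77-fold higher. The repressors of Afp after birth were dim. Zbtb20 read 244.5 in the knockout and 215.3 in the wild type, with other probe sets from -0.55 to 0.86, and Zhx2 read 93.9, under the floor, in the knockout and 136.6 in the wild type, a bound of at least 1.21-fold lower. Nr5a2, which binds the Afp promoter, had a log2 difference of 0.30, with other probe sets from -0.81 to -0.07, so its probe sets disagreed in direction.

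Genes that recycle, take up or share the cargo of these carriers lay in both directions. Of 28 listed, 26 had a probe set but only 15 were measured, with 3 at least 2-fold higher, 3 at least 2-fold lower and a median of 0.13. Among all genes 3.27% were higher and 2.13% lower by that size. The higher genes, Cubn, Amn and Dab2 (the last named after its value was seen), also stand in the visceral endoderm list, and Rbp4 and Serpina7 also stand in the plasma protein list. Rbp4, the partner of transthyretin in plasma, read 13982 in the knockout and 18221 in the wild type, a log2 difference of -0.38. Serpina7, the thyroxine-binding globulin and the other thyroid hormone carrier, read 16.7, under the floor, in the knockout and 371.8 in the wild type, at least 3.30-fold lower. Ttpa, the hepatic vitamin E transfer protein, read 337.1 in the knockout and 858.8 in the wild type, 2.55-fold lower.

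Another gene of the list that was 2-fold lower, named after its value was seen, was the actin-severing protein Gsn, at -1.20. Fcgrt, the receptor that spares albumin from breakdown, read 1746 in the knockout and 1009 in the wild type, 1.73-fold higher, while its partner B2m differed by 0.02. The vitamin D and albumin uptake receptor Cubn read 3765 in the knockout and 60.3, under the floor, in the wild type, at least 33.4-fold higher, and its partner Amn was 2.81-fold higher. Lrp2, the other receptor of that pathway, was under the floor on both arrays at 89.3 in the knockout and 94.0 in the wild type.

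Afp and Ttr are also made by the visceral endoderm of the yolk sac, and genes of that tissue were examined as a possible other source. Of 30 listed, 28 had a probe set and 25 were measured, with 9 at least 2-fold higher, 2 at least 2-fold lower and a median of 0.05, beside 3.27% higher and 2.13% lower among all genes. Of the 9, Cubn, Amn and Dab2 repeat the receptor list, and Cldn7 also stands in the cholangiocyte list. The median fell just below 0, at -0.01, when housekeeping genes were centred. The higher genes were led by Cubn, Apoa4 (at least 12.6-fold), and the claudin genes Cldn7 and Cldn6 (bounds of 6.34-fold and 5.67-fold), and all of these were under the floor in the wild type. The 2 lower genes, named after their values were seen, were Fabp1 (2.68-fold) and Ctsh (2.02-fold). Apoa1 and Apob also stand in the plasma protein list. The summed signal of the measured genes was 75234 in the knockout and 79900 in the wild type, and a few bright genes weigh on it. Apoa1 read 25348 in the knockout and 32222 in the wild type, and Fabp1 6859 in the knockout and 18352 in the wild type. Maob, also named after its value was seen, read 12453 in the knockout and 3639 in the wild type. Cdx2, Trap1a and Lrp2 of this list were under the floor on both arrays. Their part in the Afp and Ttr readings was not tested.

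**Figure D4:**
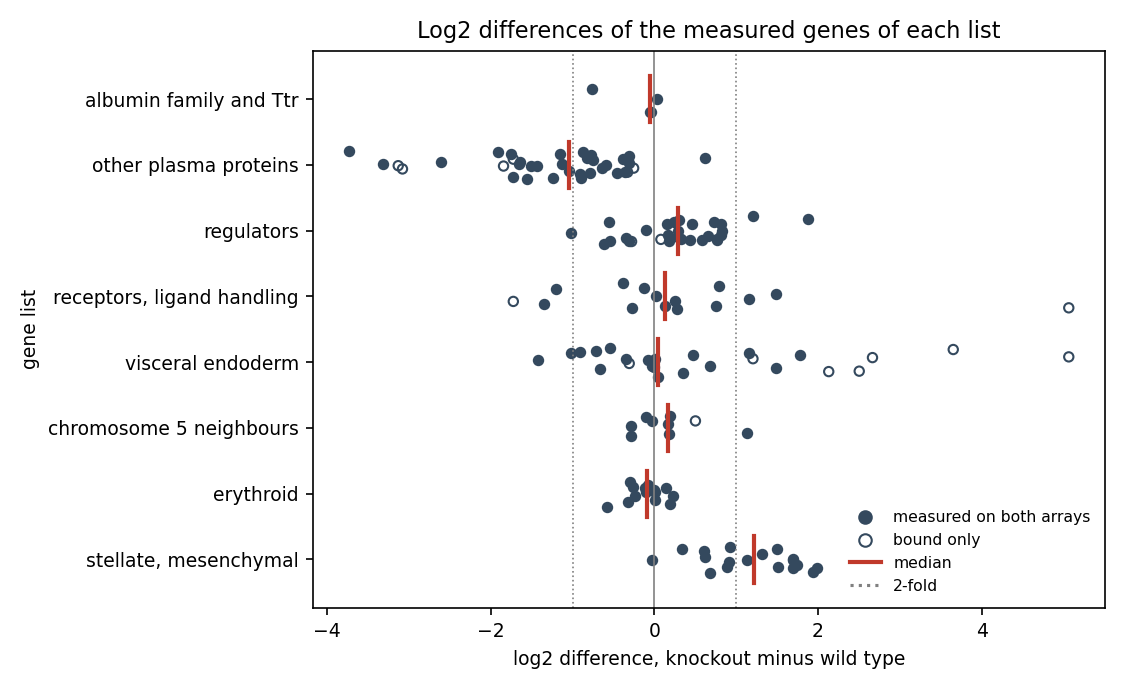
Log2 difference, knockout minus wild type, of each measured gene by list, with filled circles for genes measured on both arrays, open circles for bounds, a red bar at the median and dotted lines at 2-fold. Height within a row has no meaning. The albumin family and Ttr have a median of -0.05, other plasma proteins -1.04 and stellate and mesenchymal genes 1.22.

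The chromosomal neighbours of the family showed no shared shift. Of the 12 protein-coding genes nearest to the Alb, Afp and Afm cluster and to Gc, 4 on each side, 9 were measured, with 1 at least 2-fold higher (3.27% of all genes were), 0 lower and a median of 0.17. The higher one was Slc4a4, a bicarbonate cotransporter next to Gc, which read 366.2 in the knockout and 167.0 in the wild type, 2.19-fold higher, with 1.01 on its other measured probe set. Adamts3 had a bound of 0.50, and Rassf6 and Dck differed by -0.28 each. Albfm1, albumin superfamily member 1, follows Afm directly and read 6.66 in the knockout and 70.5 in the wild type, under the floor on both arrays, so no difference is given. It was named after its value was seen.

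Markers of some other cells of the fetal liver also differed between the arrays, and others did not reach 2-fold. All 18 stellate and mesenchymal genes were measured, 10 at least 2-fold higher (3.27% of all genes were) and 0 lower, with a median of 1.22 and a summed signal of 51480 in the knockout and 28713 in the wild type. Col1a1, a collagen chain, was 3.96-fold higher. Of 15 measured erythroid genes, from the main cell type of the organ at this stage, 0 were 2-fold apart, the median was -0.09, and the sum was 176246 in the knockout and 190280 in the wild type (Hba-a1 was under the floor on both arrays). Of 5 granulocyte genes 3 were at least 2-fold higher, and their sum was 62008 in the knockout and 29673 in the wild type. Of 6 macrophage genes 1 was 2-fold higher, with sums of 12356 in the knockout and 8669 in the wild type. Of 9 endothelial genes 0 were 2-fold apart, with sums of 5309 in the knockout and 4558 in the wild type. The cholangiocyte list had 5 measured genes, all under the floor in the wild type, and the bounds of 3 of them reached 2-fold higher in the knockout. Their sum before the floor was 2210 in the knockout and 317.1 in the wild type.

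Hepatocyte markers, which define the labelled tissue, were present on both arrays: all 6 of those with a probe set were measured. Of these 3 were at least 2-fold lower in the knockout (2.13% of all genes were). They were Ahsg and Apoh, which also stand in the plasma protein list, and Cps1. The sum was 71763 in the knockout and 96763 in the wild type, of which Alb and Ttr made up the larger share on both arrays. The part of these cell type differences in the values of Alb, Afp, Afm and Ttr was not tested.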

How the data were processed

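Total RNA of 1 liver sample per genotype was labelled as biotinylated cRNA with the Affymetrix one-cycle assay, per the labels' protocols. The authors deposited 1 intensity value per probe set, a MAS5 signal according to the submitters' processing notes, which give no version. MAS5 subtracts mismatch signal, so dim probe sets scatter, and scales each array to a target. Of 45101 probe sets, 64 controls were left out. Probe sets were named from GEO's platform annotation, updated through a RefSeq table of GRCm38.p6: 34945 probe sets had 1 gene, 932 several and 9160 were unnamed, and only the first kind names a gene.

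From these values the floor, log2 differences, ranks and counts were computed in Python (3.11.15) with pandas 2.3.3, numpy 2.4.6, statsmodels 0.14.6 (lowess) and scipy 1.17.1, and figures were drawn with matplotlib 3.10.9. The counting was tested on simulated data, with shifts put on genes with a wild-type signal above 1000 and the same noise on every probe set. That check covers the counting only, and not scatter near the floor or compression at the top of the scale. The precision is limited by 1 array per genotype: no p-value is given. Named genes were all members, up to 4 measured genes of each list with the largest absolute log2 difference and a short set named whatever its values; others are marked. The members and lists were chosen with earlier results of these data known. The alternatives were 2 other floors, no floor, the median over probe sets, 3 rescalings (quantile, lowess, housekeeping), only _at probe sets, and sizes of 1.5-fold and 3-fold.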

Additional observations from a re-analysis of the deposited data

How the results depend on the processing

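No paired analysis was possible because each genotype has 1 array. Alb, Afp, Afm and Ttr stayed within 1 robust SD of their reported log2 difference under every alternative that gave a value: Alb from -0.02 to 0.03, Afp from -0.11 to -0.0050, Afm from -0.82 to -0.73 and Ttr from -0.11 to -0.05. The other floors left the main probe sets of these genes as they were. Alb has 1 probe set, an _at, so only the 3 rescalings could change its value, and 2 of them put it below 0. Afm and Ttr have no value with only _at probe sets. In all, 110 of 128 values stayed within that SD or, for counts, within 1.5 times, and 18 moved. At 1.5-fold, counts of genes apart were 1 for the members, 29 for other plasma proteins, 11 for regulators, 16 for stellate and mesenchymal genes and 1719 for all genes. At 3-fold they were 12 for other plasma proteins, 1 for regulators, 2 for receptors, 6 for visceral endoderm genes, 0 for chromosome 5 neighbours, 6 for stellate and mesenchymal genes and 201 for all genes. With the floor at the 30th percentile 2 chromosome 5 neighbours and 1203 genes in all were 2-fold apart, with the floor at the 60th percentile 0 neighbours, and with no floor 10 receptors, 3 neighbours and 3829 genes in all (the floor sets both which dim genes are counted and the size of each bound). Signal near the top of the scale may limit what can be seen of Alb, Afp and Ttr, which was not tested. Scatter near the floor limits the dim Afp probe sets.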

Other observations

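In all, 12 genes had a probe set with a mean signal above 20000 and a second one between 1000 and 5000, and none of the albumin family or Ttr was among them. The dimmer probe sets were farther from 0 than the bright ones in 7 of these 12 genes, and the median absolute log2 difference was 0.14 on the dimmer and 0.09 on the bright probe sets. Over all measured probe sets the log2 differences also spread more widely in the dimmer band, with a robust SD of 0.23, against 0.10 above 20000. The count over 12 genes was added after the data were seen, it sets different probe sets of a gene side by side, and no explanation of it was tested.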
